A study of Mus musculus with 4 samples.

Results

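Cluster 9 is one of the 17 chromatin clusters that the authors defined on the accessibility of 43782 single cells of PB3, a mouse mammary tumor cell line. Its members were taken by the deposited cluster number. They were 2335 cells, of which 2328 came from untreated libraries and 7 from eribulin libraries, so the cluster was described in the untreated cells. The untreated scATAC library (run 1) contributed 1213 of its 9361 cells, and the untreated multiome library (run 3) contributed 1115 of its 9583 cells. The other 16616 untreated cells, each set against members of its own library, served as the comparison.

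The 4 libraries were 2 of eribulin-treated and 2 of untreated PB3 cells, each condition once by scATAC on cells and once on nuclei through the chromatin readout of a multiome kit. The eribulin cells had been exposed to 500 nM of the drug for 72 h and left to recover for 48 h, in 4 rounds. The untreated cells received no drug, and all groups derive from the same cell line and carry lentiviral lineage barcodes. Each group was a single library, so neither the spread between cultures nor a test could be had, and all intervals are exact 95% intervals over cells that cover counting error only. Because the cluster was drawn on the accessibility of the same cells, its contrast with other cells is a description.

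In ATAC-seq the transposase Tn5 cuts DNA that is not covered by nucleosomes, so the number of cut sites in peaks measures the open chromatin recovered from a cell. The nucleosome signal relates fragments that span a nucleosome to shorter, nucleosome-free fragments, and the enrichment at transcription start sites (TSS) relates cuts at gene starts to cuts in their flanks. Gene activity sums cuts over genes and serves as a stand-in for expression. A lentiviral barcode inserted in a founder cell is inherited by its descendants, so that cells with the same barcode form a lineage. Single genes and peaks were not analysed here, and cluster 9 therefore keeps its number and is given no cell type name, and mammary tumor markers could not be checked.

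A few lineages made up much of the cluster. In the untreated multiome library 50.7% (46.0 to 55.3; 232 of 458) of the cluster 9 cells with a single called barcode belonged to 9 lineages, whereas those lineages made up 1.53% (1.19 to 1.94; 66 of 4314) of the called cells in all other clusters. A lineage was counted as based in cluster 9 if it had at least 10 called cells and more than 50% of them there. That rule itself places most of the cells of such a lineage in the cluster, so this contrast is partly set by the rule. The barcodes of these 9 lineages are given here with the most frequent remaining barcode of the cluster, 71-66188. They mark the lineages with most called cells in the cluster, not membership in it. Each is a designed sequence of 48 bases from the deposited barcode list, named by the number of its short part (before the linker) and of its long part (after it), and the capitals mark the linker at bases 15 to 18.
92-83570: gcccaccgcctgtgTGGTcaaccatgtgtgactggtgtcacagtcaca
21-67560: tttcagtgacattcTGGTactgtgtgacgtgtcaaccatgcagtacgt
14-67938: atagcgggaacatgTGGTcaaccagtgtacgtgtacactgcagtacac
13-62836: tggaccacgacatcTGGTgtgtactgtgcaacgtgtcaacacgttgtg
69-34430: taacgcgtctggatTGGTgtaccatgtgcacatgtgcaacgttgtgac
69-83753: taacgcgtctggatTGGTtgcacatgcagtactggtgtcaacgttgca
50-30721: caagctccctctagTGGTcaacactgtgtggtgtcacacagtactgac
95-57159: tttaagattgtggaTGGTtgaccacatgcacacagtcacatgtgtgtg
63-20707: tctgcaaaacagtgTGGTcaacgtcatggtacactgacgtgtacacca
71-66188: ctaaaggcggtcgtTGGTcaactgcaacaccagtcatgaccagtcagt

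Barcodes 69-34430 and 69-83753 share their short part and differ in 22 bases of the long part. All 484 barcodes called in the untreated multiome library were found in the list. No named barcode came closer than 12 bases to any other called barcode, the distance between 95-57159 and 95-54505, a barcode with 6 cells and none in cluster 9.

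Cluster 9 held similar shares of both untreated libraries. It made up 12.96% (12.3 to 13.7) of the untreated scATAC cells and 11.6% (11 to 12.3) of the untreated multiome cells. In scATAC the share was 14.5% (13.1 to 15.97) among cells of the lowest quartile of cut sites and 11.2% (9.99 to 12.6) in the highest. In the multiome library it was 11.1% (9.91 to 12.5) in the lowest and 10.9% (9.68 to 12.2) in the highest, with 12.9% in the second, so the decrease with depth seen in scATAC was not seen there. The untreated libraries had 1 cell barcode in common, held by no pair of cluster 9 cells. Across all libraries, 29 of the 1213 scATAC members carried a cell barcode that also occurred in another library, against 187 of the 8148 other scATAC cells. In the multiome library 11 of the 1115 members did, against 113 of the 8468 other cells. The untreated scATAC library had 215 cell barcodes in common with the eribulin scATAC library. The untreated multiome library had 123 in common with the eribulin multiome library. The libraries held between 49446970 and 127710435 cut sites in peaks.

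Members of cluster 9 had fewer cut sites than other untreated cells in scATAC and a like number in the multiome library. In scATAC their median was 6958 cut sites (quartiles 4552 and 10546) against 7521 (4848 and 11521) in the other untreated cells, a difference of -7.49%. For multiome cells the median was 5119 (3556 and 7748) against 5238 (3477 and 8067), a difference of -2.27%. A randomly drawn cluster 9 cell had fewer cut sites than a randomly drawn other cell in 53.3% of pairs in scATAC and in 50.6% in the multiome library, where equal distributions give 50%. The intervals of the medians did not overlap in scATAC (6685 to 7320 in cluster 9 and 7388 to 7640 in the other cells) and overlapped in the multiome library (4923 to 5306 and 5151 to 5323). The difference from clusters 3, 6 and 8 was -212 cut sites in scATAC and 29 in the multiome library, in place of -563 and -119. The numbers of peaks detected followed the cut sites, with medians of 6159 against 6647 in scATAC and 4695 against 4807 in the multiome library.

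**Figure D1:**
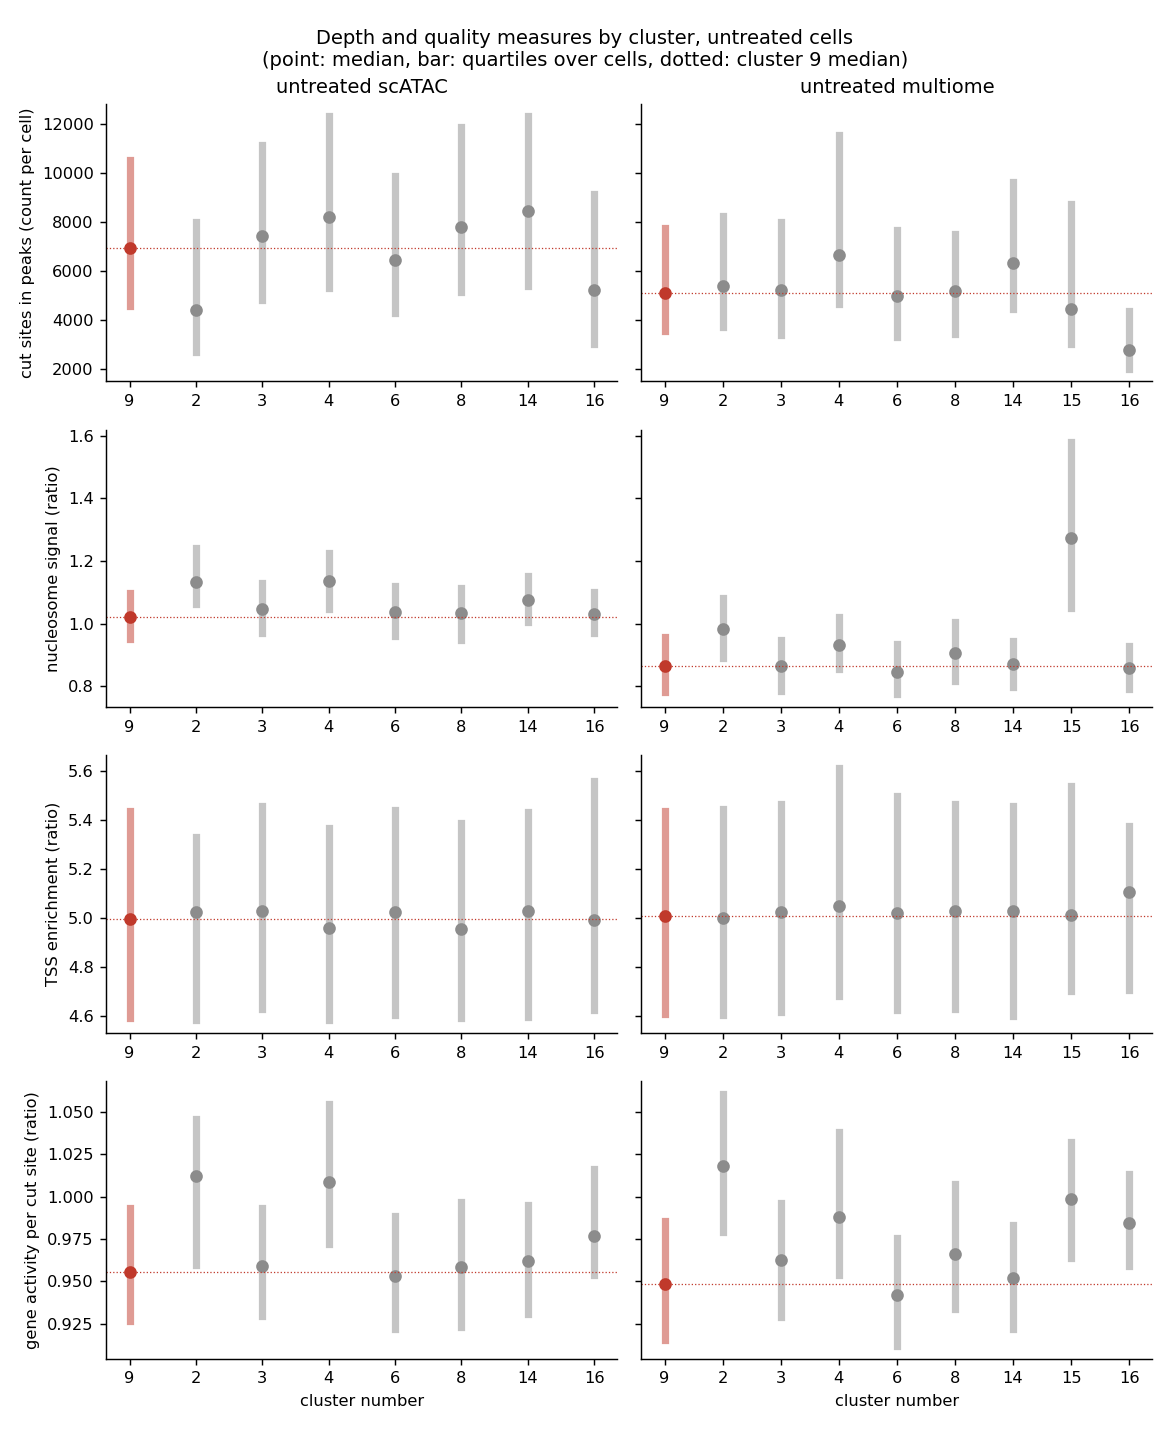
Median (point) and quartiles (bar) over cells of the cut sites in peaks, the nucleosome signal, the TSS enrichment and the gene activity per cut site for each cluster with at least 50 cells, in the untreated scATAC library (left) and the untreated multiome library (right); cluster 9 is red and its median is dotted. The nucleosome signal and the gene activity per cut site of cluster 9 lie below those of clusters 2 and 4 in both libraries and close to those of clusters 3 and 6, and the TSS enrichment is level throughout.

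The nucleosome signal of cluster 9 lay below that of the other untreated cells in both protocols. In scATAC the median was 1.02 (quartiles 0.951 and 1.099) in cluster 9 against 1.08 (0.990 and 1.17) in the other cells, a difference of -4.97%. In the multiome library it was 0.866 (0.783 and 0.956) against 0.914 (0.821 and 1.02), a difference of -5.32%. The intervals of the medians did not overlap in either library. In scATAC 68.8% of the cluster 9 cells, and in the multiome library 65.5%, fell below the median of the other cells. A lower signal means relatively fewer fragments of nucleosome length.

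This difference depended on which cells stood for comparison. The largest other cluster of each library, cluster 4 in scATAC and cluster 2 in the multiome library, had a high signal, with medians of 1.14 and 0.983. Against clusters 3, 6 and 8 together the difference was -0.017 in scATAC and -0.002 in the multiome library, in place of -0.053 and -0.049. Clusters 14 and 16, also present in both protocols, were not in that set. Against cluster 14 alone the difference was -0.053 in scATAC and -0.007 in the multiome library. Against cluster 16 alone it was -0.008 and 0.007. In scATAC cluster 9 had the lowest median of 8 clusters with at least 50 cells, although the intervals of clusters 6 (1.029 to 1.047), 8 (1.024 to 1.042) and 16 (1.015 to 1.067) overlapped its own (1.014 to 1.030). In the multiome library its rank from the lowest was 4 among 9, above cluster 6 (0.846), cluster 16 (0.858) and cluster 3 (0.864) and below cluster 14 (0.873), with cluster 8 higher at 0.906. The intervals of clusters 3, 14 and 16 overlapped its own, whereas that of cluster 6 (0.840 to 0.854) lay below that of cluster 9 (0.858 to 0.873).

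Cuts were as concentrated at gene starts in cluster 9 as elsewhere. The median TSS enrichment was 4.998 (quartiles 4.595 and 5.43) in cluster 9 against 4.99 (4.601 and 5.41) in the other scATAC cells. Among multiome cells it was 5.01 (4.61 and 5.44) in cluster 9 against 5.01 (4.61 and 5.46) in the other cells. The difference between medians, 0.005 in scATAC and -0.006 in the multiome library, was smaller than the width of either interval.

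Total gene activity was lower in cluster 9 than in all other untreated cells together in both libraries. The median total was 6743 against 7363 in scATAC, a difference of -8.41%, and 4893 against 5174 in the multiome library, a difference of -5.42%. The median number of genes with any activity was 4546 against 4859 in scATAC and 3622 against 3788 in the multiome library. These totals grow with the cut sites. With the other cells weighted to the depth of cluster 9, the difference in the total became -81 in scATAC in place of -619.5 and -196 in the multiome library in place of -280.5. Against clusters 3, 6 and 8 it was -105 in scATAC and -47 in the multiome library, and against cluster 6 alone cluster 9 had the higher total, by 613.5 and 143.

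Divided by each cell's cut sites in peaks, gene activity remained lower. Its median was 0.956 (interval 0.952 to 0.959) in cluster 9 against 0.976 (0.975 to 0.978) in the other scATAC cells, and 0.949 (0.944 to 0.953) against 0.980 (0.978 to 0.982) in the multiome library. In 59.9% of scATAC pairs and 65.0% of multiome pairs the cluster 9 cell had the lower ratio. Cluster 6 alone had a lower median, 0.953 (0.951 to 0.957) in scATAC and 0.942 (0.940 to 0.945) in the multiome library, and its intervals overlapped those of cluster 9. Clusters 2 and 4 had the highest of these ratios in scATAC, 1.01 in both, and cluster 2 the highest in the multiome library, 1.02. Against clusters 3, 6 and 8 together the difference was -0.002 in scATAC and -0.008 in the multiome library. No source used here states the region over which activity was summed per gene, and the ratio was chosen after the totals had been seen.

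On the deposited UMAP, a map on which cells of like accessibility lie close, cluster 9 lay along the lower left side of the untreated cells. Of the 30 nearest cells of the same library, 63.1% were cluster 9 cells in scATAC and 46.4% in the multiome library, where the cluster held 12.96% and 11.6% of the cells. Map and clusters rest on the same components of the peaks, so the shares describe the map only. Cluster 6 was about as compact, with 61.9% and 56.3% of neighbours of its own, whereas cluster 3 had 39.1% and 37.8%, and cluster 8 had 25.2% and 24.1%.

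The foreign neighbours of cluster 9 came most often from clusters 3 and 8. Among multiome cells 18.2% of all neighbours belonged to cluster 3 and 15.04% to cluster 8, which held 18.4% and 11.7% of the library. In scATAC the shares were 9.87% and 10.4%, for clusters of 17.5% and 13.5% of the library. The most frequent untreated clusters were underrepresented, with 8.75% of neighbours from cluster 2 in the multiome library, of which it held 34.6%, and 8.84% from cluster 4 in scATAC, of which it held 31.2%. Cluster 6 supplied 4.42% in scATAC and 6.22% in the multiome library.

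**Figure D2:**
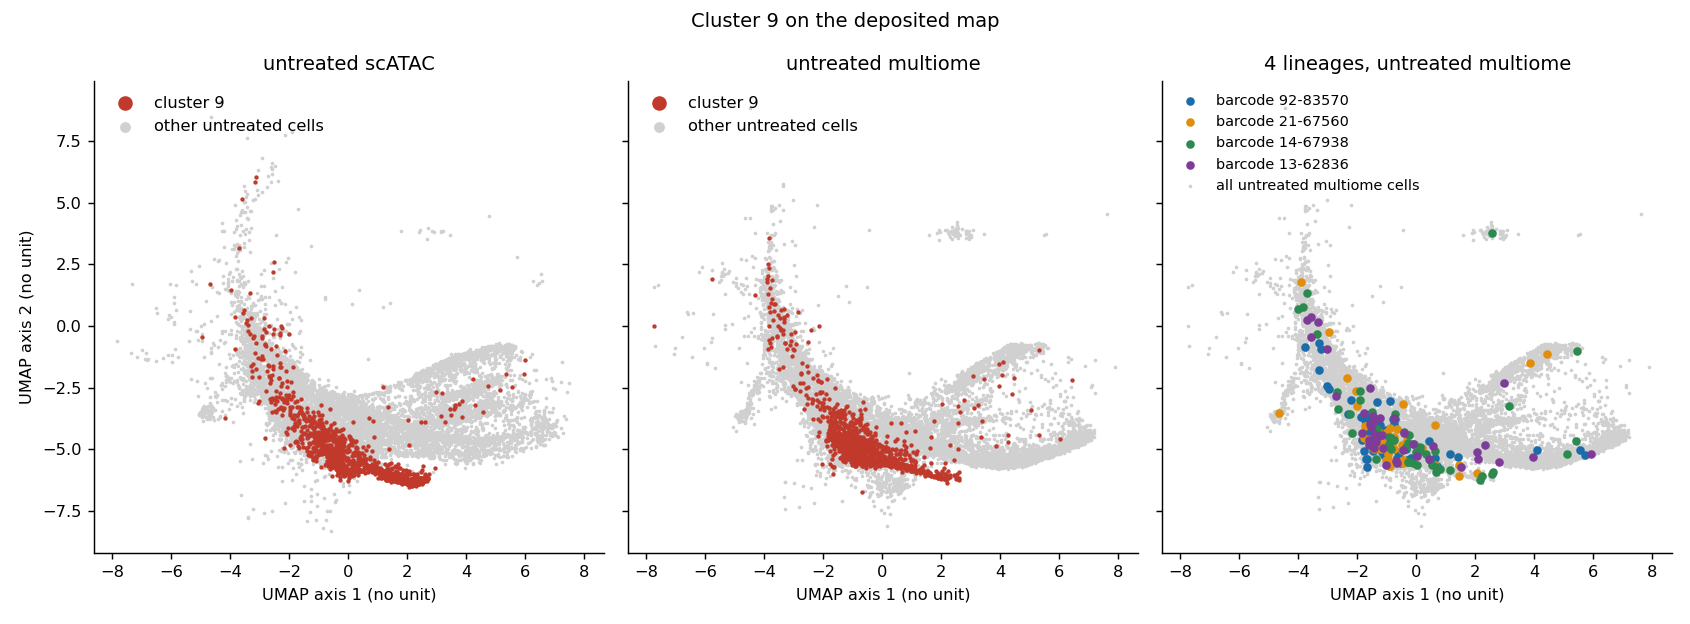
Position of cluster 9 cells (red) and other untreated cells (grey) on the deposited UMAP in the untreated scATAC and multiome libraries, and position of the 4 lineages with most cells in cluster 9 in the multiome library; both axes are without unit. Cluster 9 runs along the lower left side in both libraries, has more of its cells at the lower right end in scATAC, and the 4 lineages lie mostly within it and overlap each other.

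Position within the cluster went with depth. In scATAC 62.2% (59.4 to 65.0) of the members had mostly neighbours of their own cluster, with a median of 7896 cut sites, against 5248 in the remaining members. Of the multiome members 46.5% (43.6 to 49.5) did, with 5874 against 4472 cut sites. The mean share of own neighbours was 38.6% in the lowest depth quartile of the scATAC members and 75.1% in the highest, and 31.9% and 51.9% in the multiome library. Cluster 6 showed a like range, from 38.7% to 79.2% in scATAC and from 26.2% to 79.5% in the multiome library. Cluster 3 had 33.4% in the lowest quartile and 50.7% in the highest in scATAC, and 28.0% and 46.6% in the multiome library, close to cluster 9 there. Cluster 8 had no such increase, with 22.8% and 23.3% in scATAC and 24.4% and 20.0% in the multiome library. At the bottom of the range, 39 scATAC members (3.22%) and 56 multiome members (5.02%) had no neighbour of their own cluster at all.

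**Figure D3:**
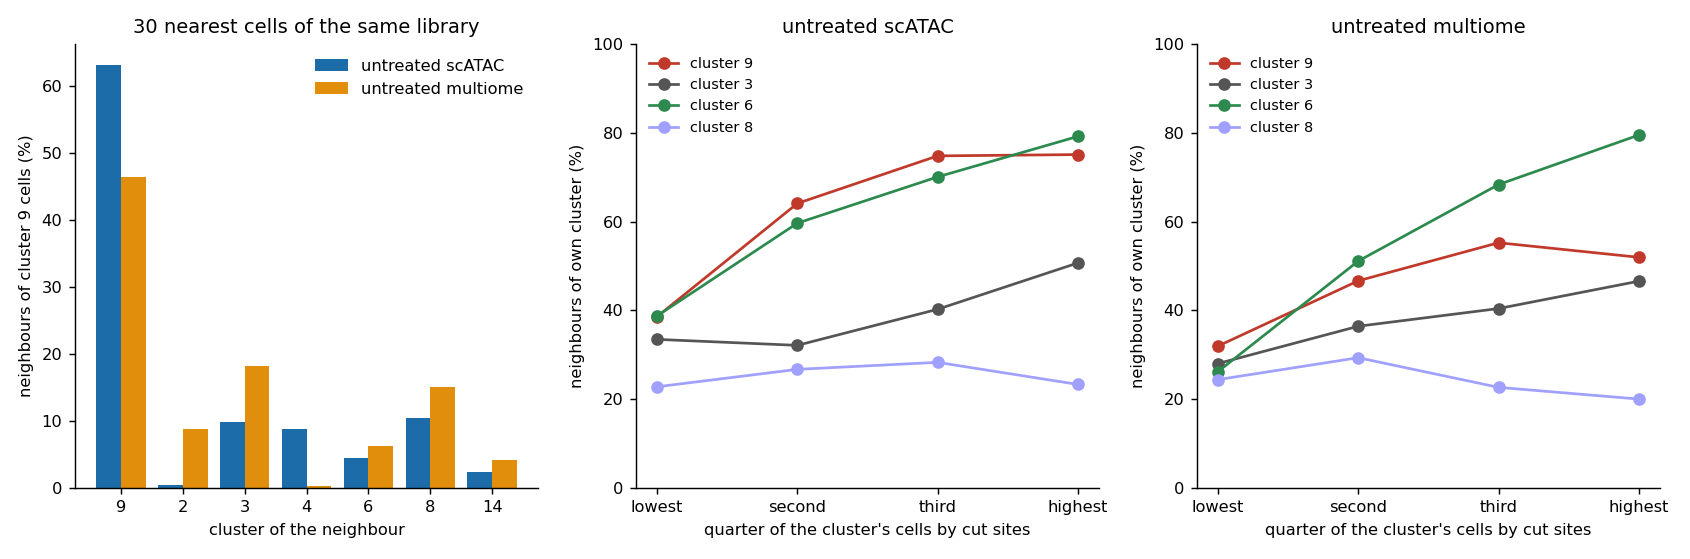
Left, the share (%) of the 30 nearest cells of cluster 9 members that belong to each cluster, by library; middle and right, the mean share (%) of neighbours of the own cluster by depth quartile of the cluster's cells, for clusters 9, 3, 6 and 8. The own share of cluster 9 is higher in the 2 upper depth quartiles than in the lowest in both libraries, and the next most frequent neighbours are clusters 3 and 8.

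The protocols were unevenly spread over the cluster, and protocol, run and library cannot be told apart. The median position of members differed by 0.971 map units between libraries, where the median distance of a member from its own centre was 1.50 units in scATAC and 0.855 in the multiome library. In cluster 9 thinned to 1115 cells per library 61.0% of the 30 nearest members came from the cell's own library, where even mixing gives 50%. Clusters 3, 6 and 8, thinned in the same way, gave 60.5%, 57.4% and 57.2%. The lower right end of the cluster, set after the map had been seen as axis 1 above 1 and axis 2 below -5, held 32.2% (29.5 to 34.9; 390 cells) of the scATAC members and 8.61% (7.03 to 10.4; 96 cells) of the multiome members. Cells at that end were deep, with a median of 10498 cut sites against 5544 in the remaining scATAC members and 9509 against 4863 in the multiome library. Their nucleosome signal was 1.02 against 1.02 in scATAC and 0.879 against 0.865 in the multiome library. The 38 called multiome cells at the end carried 25 barcodes.

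Barcodes were called less often in cluster 9 than elsewhere. In the multiome library 41.1% (38.2 to 44.0; 458 of 1115) of the cluster 9 cells had a single barcode, against 50.9% (49.9 to 52.0; 4314 of 8468) of the other untreated cells. Clusters 2, 3, 6, 8 and 14 each lay between 47.3% (cluster 8) and 53.5% (cluster 14). The lower share was present at each depth, at 39.3% against 47.7% in the lowest quartile of cut sites, 38.7% against 48.8% in the second, 41.5% against 51.8% in the third and 45.2% against 55.4% in the highest. The small clusters 4, 15 and 16 are not in the range given above. In cluster 16 (141 multiome cells) the share was no higher than in cluster 9, so a low share was not particular to cluster 9. Doublets made up 5.47% (4.21 to 6.97) of the cluster 9 cells against 7.18% (6.64 to 7.75) of the other cells, and multiplets 1.35% against 2.14%. Among scATAC cells 3 of 1213 in cluster 9 and 26 of 8148 elsewhere had a single called barcode, so lineages were described in the multiome library.

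The called cluster 9 cells carried 138 of the 484 barcodes of the library. Of these, 80 were seen in 1 cluster 9 cell, 49 in 2 to 9 cells and 9 in at least 10. Their effective number, which is how many equally frequent barcodes would give the same chance of a shared one, was 24.9 in cluster 9 and 114 in the other untreated cells. Cluster 6 had 20.4 and cluster 8 had 36.4, against 80.3 in cluster 3 and 71.3 in cluster 2. Another called cell with the same barcode as a cluster 9 cell lay in cluster 9 in 51.2% of cases, and one with a different barcode in 9.26%. That share was 11.7% when the lineages of at least 10 cells with a cell in cluster 9 were each counted once.

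Barcode 92-83570 was the most frequent in the cluster. It had 57 of its 67 cells there (85.1%, 74.3 to 92.6), or 12.4% of the called cluster 9 cells, against 0.232% of the called cells elsewhere. Its 10 remaining cells lay in clusters 2 (5 cells), 8 (2), 14 (2) and 3 (1). Barcode 21-67560 had 42 of 49 cells in cluster 9 (85.7%, 72.8 to 94.1), and barcode 14-67938 had 36 of 48 (75%, 60.4 to 86.4). These 3 lineages together with 13-62836, which had 28 of 42 cells in the cluster (66.7%, 50.5 to 80.4), were the largest ones based in it.

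The other 5 lineages were smaller. Barcode 69-34430 had 21 of 28 cells in cluster 9, 69-83753 had 18 of 23, 50-30721 had 12 of 14, 95-57159 had 11 of 16 and 63-20707 had 7 of 11. Those last shares have wide intervals, for 63-20707 from 30.8% to 89.1%. Barcode 63-20707, with 63.6%, was the lineage just above the limit of 50%, and 71-66188, with 14 of 30 cells (46.7%, 28.3 to 65.7), was the one just below it.

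**Figure D4:**
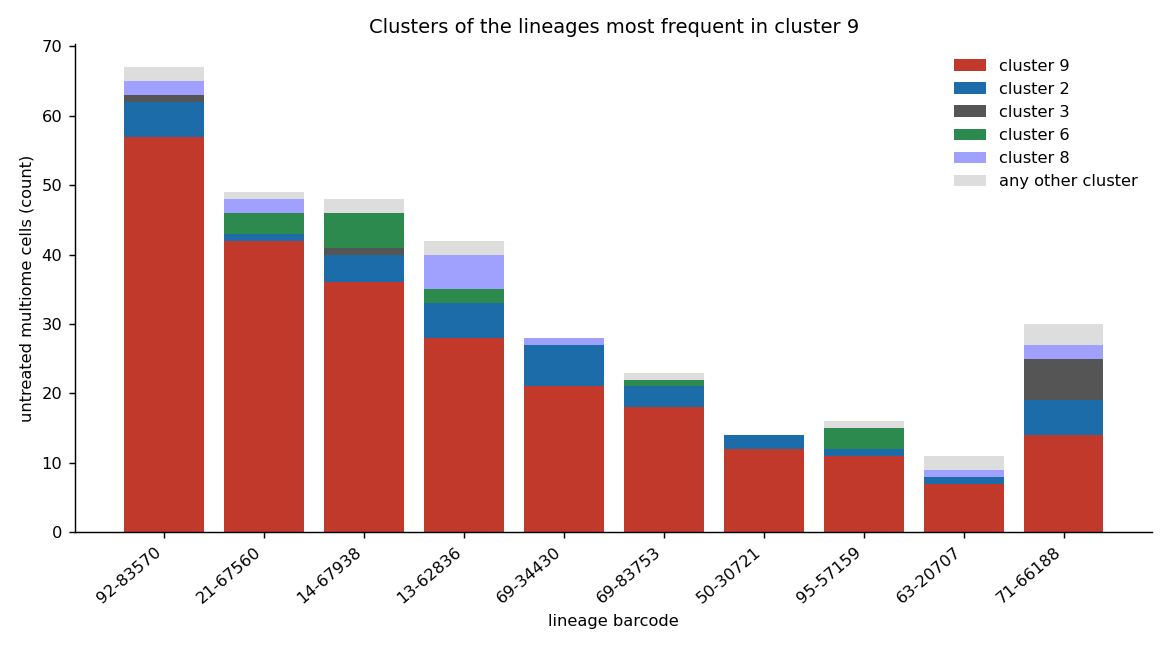
Number of untreated multiome cells of each named barcode by cluster, with cluster 9 in red at the base; the first 9 barcodes are the lineages based in cluster 9. The red part is 57 of 67 cells in 92-83570 and 14 of 30 cells in 71-66188.

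Most other lineages had few or no cells in the cluster. Of the 116 other lineages with at least 10 called cells, 47 had no cell in cluster 9. Over the 116 the median share was 3.34%, and their cells lay there in 4.27% of cases (3.61 to 5.02; 143 of 3346). The 260 lineages of 2 to 9 cells had 7.29% of their cells there (5.78 to 9.05), and 9 of them had over 50%, among them 36-26254 with 6 of 8 cells, 2-4622 with 5 of 7 and 86-72393 with 4 of 5, which were singled out after their values were seen. Of 99 barcodes seen in a single cell, 8 were in cluster 9 (8.08%, 3.55 to 15.3). Restricted to the cluster were 11 barcodes, none with more than 2 cells. Of these, 8 were the barcodes seen in a single cell, which cannot lie in several clusters. The remaining 3 were lineages of 2 cells.

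Cells of the 9 lineages that lay outside cluster 9 were spread much like other cells, apart from cluster 3. Cluster 2 held 42.4% (30.3 to 55.2; 28 of 66) of them, against 39.9% of the cells of other lineages outside cluster 9. Cluster 6 held 21.2% against 16.1%, and cluster 8 held 16.7% against 12.2%. Cluster 3 held 2 of the 66 cells (3.03%, 0.369 to 10.5), against 21.6% (20.4 to 22.9) of the cells of other lineages, although it was the most frequent neighbour of cluster 9 on the map in this library. Cluster 15 held 4 of the 66 (6.06%, 1.68 to 14.8) against 1.29%. On the map 8.99% of the 30 neighbours of these outside cells were cluster 9 cells, against 7.31% for the outside cells of other lineages.

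Cells of the same lineages differed in chromatin measures inside and outside the cluster. Within cluster 9 the median nucleosome signal was 0.858 (interval 0.836 to 0.875) in the 232 cells of lineages based there and 0.856 (0.843 to 0.872) in the 226 cells of all other lineages. Outside cluster 9 it was 0.920 (0.899 to 0.951) in the 66 cells of the same 9 lineages and 0.913 (0.907 to 0.920) in the cells of other lineages. The 28 cells of these lineages in cluster 2 had 0.9501 (0.903 to 0.970), against 0.979 (0.971 to 0.986) in the 1694 cluster 2 cells of other lineages. Gene activity per cut site showed the same pattern, with 0.948 and 0.941 inside the cluster for lineages based there and for others, and 0.971 and 0.979 outside it. Cut sites were 5091 (4596 to 5568) inside and 5159 (3813 to 6688) outside for the lineages based there. The cells outside lay most often in cluster 2, and the 14 of them in cluster 6 had a median nucleosome signal of 0.837 (0.653 to 0.959).

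Lineage by lineage, 7 of the 9 had at least 5 cells outside the cluster, and in 6 of these the median nucleosome signal was lower inside. It was 0.851 inside against 0.927 outside for 92-83570, 0.820 against 0.870 for 21-67560, and 0.817 against 0.946 for 69-34430. Of the 7 cells of 69-34430 outside, 6 lay in cluster 2. Over all cells of this library the median was 0.866 in cluster 9, 0.914 in the other untreated cells and 0.983 in cluster 2. A lower value inside was therefore not particular to these lineages. The exception was 95-57159, with 1.02 in its 11 cells inside against 0.875 in its 5 cells outside. The median gene activity per cut site was lower inside in 5 of the 7 and the median number of cut sites in 4. Barcode 71-66188 had 0.825 inside against 0.822 outside.

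**Figure D5:**
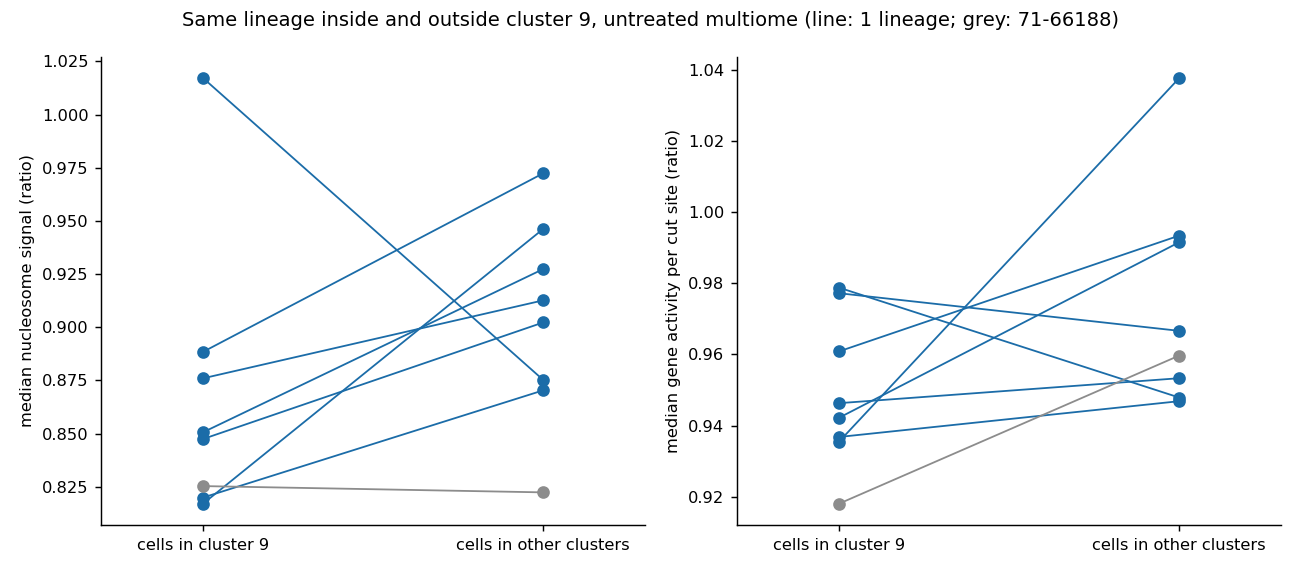
Median nucleosome signal (left) and median gene activity per cut site (right) of the cells of a lineage in cluster 9 and in other clusters, untreated multiome library; each line is 1 named lineage with at least 5 cells outside, grey for 71-66188. The nucleosome signal is lower inside cluster 9 in 6 of the 7 lineages based there, with 95-57159 running the other way.

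Inside the cluster the lineages overlapped on the map, but 9 of the 10 named barcodes had more cells of their own among their nearest ones than their share. Of the 10 nearest called cluster 9 cells of a 92-83570 cell, 17.4% carried the same barcode, where that barcode made up 12.3% of the other called members. For 14-67938 the values were 13.3% and 7.66%, and for 21-67560 they were 8.81% and 8.97%. The excess was small for 69-34430 (4.76% and 4.38%), 69-83753 (4.44% and 3.72%) and 71-66188 (3.57% and 2.84%). The excess was relatively largest in 2 small lineages, with 8.18% and 2.19% for 95-57159 (11 cells) and 5.71% and 1.31% for 63-20707 (7 cells). Barcode 63-20707 had its median position at 1.07 on axis 1, whereas the other 9 lay between -1.53 and -0.16. The median nucleosome signal of the 9 lineages inside the cluster ranged from 0.817 in 69-34430 to 1.02 in 95-57159, and their median cut sites from 4561 in 95-57159 to 6529 in 50-30721.

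The scATAC library did not show these lineages in cluster 9. Its 3 called cluster 9 cells carried 55-6980, 39-41529 and 30-58918, which in the multiome library had 4 of 82, 0 of 40 and 0 of 97 cells in cluster 9 and were most frequent in clusters 8, 2 and 6. The 1 untreated scATAC cell with a barcode based in cluster 9, 92-83570, lay in cluster 6. With 29 called cells in that library, too few barcodes were called to describe the relation between lineage and cluster there.

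After eribulin the lineages based in cluster 9 were nearly undetected, and most other lineages of at least 10 cells were not seen. They were called in 2 of the 1391 eribulin multiome cells with a single barcode, against 298 of the 4772 untreated ones. The 2 cells belonged to 92-83570, in cluster 0, and to 69-34430, in cluster 9. The other 7 were in 0 of the 1391 cells, for which up to 0.216% is possible each. Their untreated shares ran from 0.231% (63-20707), just above that limit, to 1.03% (21-67560). In eribulin scATAC 0 of 84 called cells carried any of the 9, for which up to 3.57% is possible. Counted by lineage, 2 of the 9 had an eribulin multiome cell, and 16 of the 116 other lineages of at least 10 cells had one. The eribulin multiome library held 27 called barcodes in all, so absence there was not particular to the lineages based in cluster 9. The 5 barcodes most frequent in the eribulin multiome library had 3 of their 79 untreated multiome cells in cluster 9 (3.80%, 0.790 to 10.7), against 9.60% (8.78 to 10.5; 458 of 4772) of all called cells of that library, and the intervals overlapped.

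Cluster 9 itself was nearly empty after eribulin, with 2 of 16724 scATAC cells (0.012%, 0.001 to 0.043) and 5 of 8114 multiome cells (0.062%, 0.020 to 0.144). Their nucleosome signal was low for the cluster in scATAC, at 0.597 and 0.647, and 2 of the 1213 untreated scATAC members lay at or below the higher value. Among the 5 eribulin multiome cells it lay between 0.505 and 0.690, and 71 of the 1115 untreated multiome members (6.37%) lay at or below 0.690. The medians of the whole eribulin libraries were 0.756 in scATAC and 0.668 in the multiome library.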

How the data were processed

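The deposited tables of cells, UMAP coordinates and lentiviral barcodes were used. Per the series' design text, the authors made peak counts with cellranger-atac (run 1) and cellranger-arc 1.0.0 (run 3) on mm10 and filtered and clustered cells with Signac 1.1.1. The sources used here do not state how libraries were integrated or barcodes called. The deposited counts per cell (cut sites in peaks, peaks detected, gene activity, genes detected) are whole numbers without normalization. The deposited nucleosome signal and TSS enrichment are values per cell and were taken as ratios, which their column names do not state. UMAP coordinates, as deposited, are a unitless score.

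Medians, shares, neighbour shares and barcode counts were computed with Python 3.11.15 (numpy 2.4.6, pandas 2.3.3, scipy 1.17.1), and plots with matplotlib 3.10.9. Shares carry exact (Clopper-Pearson) 95% intervals, medians binomial order-statistic intervals, and a count of 0 the limit of 3 counts. Barcode names, written in several forms, were brought to 1 form by their part numbers. Cells called doublet, multiplet or unmapped were kept except among lineages. Doublets were not called anew. Cluster 9 was set against other untreated cells of the same library. No test was made: each group is 1 library and cells are not replicates. 6 calculations were tested on simulated data, and the least accurate was off by 1.16%.

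Barcodes named are those of at least 10 called untreated multiome cells with over 50% in cluster 9, and the 10 most frequent in cluster 9. The members, rules and alternatives were chosen with earlier results of these data known.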

Additional observations from a re-analysis of the deposited data

Results flagged for a closer look

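The difference in median TSS enrichment between cluster 9 and the other untreated cells had opposite signs in the protocols, 0.00483 in the scATAC library and -0.00605 in the multiome library. Each protocol has 1 library, so this difference between protocols was not tested, and both values are smaller than the intervals of the medians. The scATAC difference against clusters 3, 6 and 8 was -0.0095, the same sign as in the multiome library.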

How the results depend on the processing

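Of 116 values recomputed under alternatives, 88 stayed within a set tolerance of the value reported, and 28 moved beyond it. For differences the tolerance came from the interval of the cluster 9 median alone, without the error of the comparison cells. For neighbour shares it treated each member as an independent count, although neighbour sets overlap. Of the 88, 4 took the opposite sign: against clusters 3, 6 and 8 the multiome differences became 29 cut sites (reported: -119) and 14 peaks detected (-111.5), and the scATAC TSS enrichment difference (0.00483) became -0.0095, and -0.0118 without the most frequent other cluster, so these directions are not settled. No other value changed sign. Leaving out cells called doublet or multiplet, or cells whose cell barcode occurs in another library (chosen after seeing the data), moved none. Against clusters 3, 6 and 8, the cluster 9 difference became -212 cut sites, -0.0167 in nucleosome signal and -105 in gene activity in scATAC, and -0.0017 in nucleosome signal and -47 in gene activity in the multiome library. Without the most frequent other cluster (chosen after seeing the data) the scATAC values were -233, -0.0240 and -145, and the multiome ones -0.0064 and -70.0. Between means the scATAC gene activity difference was -916, and with depth weighting -81.0. Neighbours from cluster 9 made up 60.3% (both untreated libraries searched) and 59.6% (all 4) for scATAC cells. With the minimum size set to 20 cells, the lineages based in cluster 9 held 44.1% of the called cluster 9 cells of the multiome library. Same-barcode partners in cluster 9 made up 11.7% with lineages of at least 10 cells weighted equally. The cause of these changes was not tested. In scATAC the most frequent barcode of cluster 9 was tied, so it was not left out there. No paired analysis was possible because no result comes from a test: cluster 9 and the other cells were compared within each library, and 2 such pairs allow no exact two-sided p below 0.5. The few called scATAC cells limit all statements on lineages to 1 library.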
